A study of Mus musculus with 4 samples.

Results

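The extragenic Wapal-binding sites near genes were the sites whose centre lay in no gene body and more than 2000 bp, but no more than 20000 bp, from the nearest transcription start site (TSS) of any annotated transcript on mm9. Of the 8497 regions in the FB Wapal list, 174 shared a base with a region of the BirA control and were removed, which left 8323 Wapal-binding sites. Of these, 4505 were extragenic and beyond 2000 bp of a TSS, and 2128 of them (47.2%, and 25.6% of all sites) lay within the 20000 bp limit. The nearest TSS to them was of 1992 different genes, 1435 of them protein-coding. These 2128 sites are called near-gene extragenic sites here. The rule uses position and the overlap with BirA regions, and neither scores nor sequence were used to choose the sites.

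The sites came from biotin-mediated ChIP-seq (bioChIP-seq) in mouse embryonic stem cells (ESCs) grown in standard conditions. All cells expressed the biotin ligase BirA, and 2 independently derived clones also carried FB Wapal, a Wapal with a Flag and a biotin acceptor tag, which BirA labels in living cells so that streptavidin beads recover it with its DNA. The controls were a line that expressed only BirA (1 sample) and input DNA (1 sample), and no age or treatment separates the groups. Regions of both clones were deposited as 1 list without read counts, so that the reads behind a region and the spread between clones are not known, and regions of 1 list are not replicates of a condition. All intervals given are 95% intervals and cover counting error only.

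Cohesin is a ring of Smc1a, Smc3 and Rad21 that holds DNA strands together and forms chromatin loops. Wapal opens the ring and releases cohesin from chromatin. CTCF, a zinc finger protein with a directional DNA motif, halts cohesin on the chromosome and marks the base of many loops, so that sites between genes can place an enhancer in the same loop as a promoter or keep them apart. A site in the space beside a gene may lie before its TSS or past its end, and it may be nearer to a second gene's end than to the TSS that defines its distance.

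The sequences around the best match to the CTCF core motif are shown first for the near-gene extragenic sites at Adm and Snai2, genes named in the study, because both held an exact match. Each line has 60 bases of mm9, read 5′ to 3′ on the strand of the match, with the 12 bases of the match in capitals.
Adm (chr7:117773840-117773899, - strand): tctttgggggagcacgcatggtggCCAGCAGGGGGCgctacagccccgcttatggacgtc
Snai2 (chr16:14701560-14701619, + strand): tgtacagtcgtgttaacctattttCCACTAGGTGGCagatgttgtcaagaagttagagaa

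The next lines show 6 of the 10 sites with the highest scores in the same way, to show how the core varied among sites with strong signal. Matches at mmu-mir-2134-4, Tfb1m and 1810063B07Rik had 1 mismatch and those at Slc10a1, Gm13649 and Psen2 were exact.
mmu-mir-2134-4 (chr13:9846230-9846289, - strand): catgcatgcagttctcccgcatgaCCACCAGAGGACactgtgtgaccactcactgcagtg
Tfb1m (chr17:3571041-3571100, + strand): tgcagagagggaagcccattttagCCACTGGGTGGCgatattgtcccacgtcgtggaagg
1810063B07Rik (chr14:20886724-20886783, - strand): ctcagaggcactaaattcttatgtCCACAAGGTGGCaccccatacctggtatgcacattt
Slc10a1 (chr12:82083479-82083538, + strand): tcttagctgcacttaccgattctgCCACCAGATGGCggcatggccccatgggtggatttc
Gm13649 (chr2:77180222-77180281, - strand): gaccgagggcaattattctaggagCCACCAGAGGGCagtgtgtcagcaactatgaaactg
Psen2 (chr1:182198870-182198929, + strand): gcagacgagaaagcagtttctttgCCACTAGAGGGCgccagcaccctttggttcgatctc

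Near-gene extragenic sites lay about as often upstream of the nearest TSS as the bases available there. Of the 2128 sites, 1321 were upstream (62.1%, interval 60.0 to 64.1) and 807 were downstream, past the end of the gene with that TSS. Of the 410 Mb of sequenced bases that meet the same position rule, 63.1% were upstream. The density was 5.10 sites per Mb upstream (4.83 to 5.38) and 5.33 per Mb downstream (4.97 to 5.71), and these intervals overlap. At the 1536 sites whose nearest TSS was protein-coding, the density was 6.14 per Mb upstream (1028 sites, 5.77 to 6.53) and 7.30 per Mb downstream (508 sites, 6.68 to 7.96), without overlap, and at the others it was 3.20 (2.84 to 3.59) and 3.65 (3.25 to 4.09). Sites were denser in these bases as a whole, at 5.18 per Mb (4.97 to 5.41), than within gene bodies beyond 2 kb of a TSS, at 3.26 per Mb (3.14 to 3.38), or in extragenic bases 20 to 100 kb from a TSS, at 3.24 per Mb (3.09 to 3.39). Within 2 kb of a TSS the density of sites was 4.2 per Mb (3.92 to 4.50).

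The density changed little with distance. In bins of 2 kb it ranged from 4.30 to 5.82 sites per Mb upstream, highest at 4 to 6 kb (223 sites) and lowest at 18 to 20 kb (81 sites). Downstream it ranged from 4.46 to 6.30 per Mb, highest at 10 to 12 kb (108 sites). The counting intervals of the highest and the lowest bin overlapped on both sides. The median distance was 8.46 kb upstream (8.05 to 9.03) and 10.1 kb downstream (9.55 to 10.6). A downstream site must lie past the end of a gene shorter than that distance or beside a later TSS of a longer one, and the protein-coding genes with a downstream site had a median length of 7.38 kb, against 20.9 kb for those with an upstream site and 15.4 kb for all protein-coding genes.

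**Figure D1:**
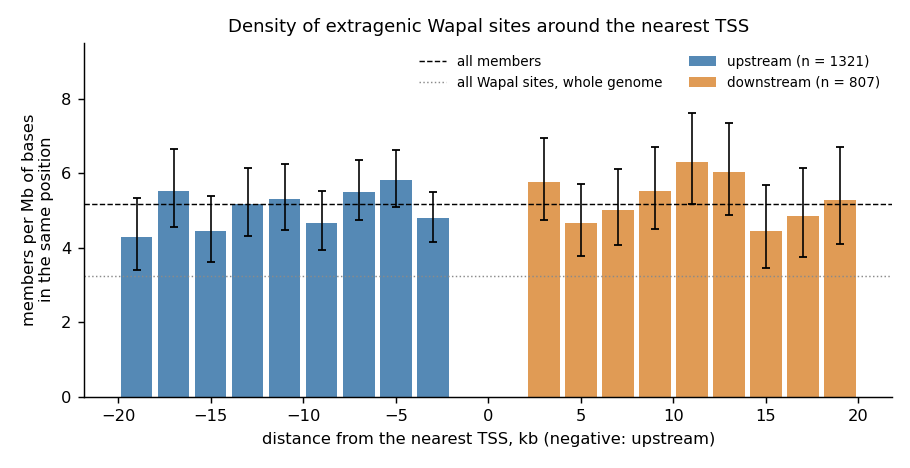
Bars give near-gene extragenic sites per Mb of sequenced bases in the same position (y axis) by distance from the nearest TSS in kb (x axis, upstream negative), with 95% counting intervals. Densities lie between 4.30 and 6.30 per Mb on both sides, above the 3.25 per Mb of all Wapal sites over the whole genome (dotted line).

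Taken over all distances, gene ends held more sites per base than gene starts. The nearest gene boundary was a gene end for 1043 of the 2128 sites (49.0%, 46.9 to 51.1), while gene ends were nearest to 44.2% of the bases that meet the rule. The density was 5.75 sites per Mb beside gene ends (5.41 to 6.11) and 4.74 per Mb beside gene starts (4.46 to 5.03). The value for ends includes the first 2 kb past them, at 6.28 per Mb within 1 kb and 8.92 at 1 to 2 kb. The rule leaves out these distances before starts. By distance, the intervals for ends and starts did not overlap at 2 to 5 kb (6.36 per Mb, 5.66 to 7.12, against 4.66, 4.12 to 5.25). They overlapped at 5 to 10 kb (5.69 against 5.00 per Mb), and at 10 to 20 kb ends had the lower value (4.24, 3.71 to 4.84, against 4.59, 4.17 to 5.03) with overlapping intervals. The difference over all distances was also present among the 805 sites with a score of at least 100, of which 48.3% (44.9 to 51.8) were nearest to a gene end. The bases beside ends and starts had a GC content of 42.3% and 42.1%, and its part in the result was not tested.

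The ends of protein-coding genes stood above their starts. Near the ends of protein-coding genes the density was 7.85 sites per Mb (767 sites, 7.30 to 8.42), and near their starts it was 5.77 per Mb (846 sites, 5.39 to 6.18). By distance, it was 7.14 per Mb within 1 kb past the end, 9.96 at 1 to 2 kb, 8.46 at 2 to 5 kb, 7.74 at 5 to 10 kb and 6.37 at 10 to 20 kb. Before the start it was 5.45 per Mb at 2 to 5 kb, 5.77 at 5 to 10 kb and 5.99 at 10 to 20 kb. The intervals for ends and starts did not overlap at 2 to 5 kb (7.41 to 9.62 against 4.74 to 6.24) or at 5 to 10 kb (6.74 to 8.83 against 5.10 to 6.49), and they overlapped at 10 to 20 kb. No start has sites within 2 kb, because the rule leaves them out. Beside genes of other types (pseudogenes and noncoding RNAs) the density was 3.30 per Mb at ends (2.93 to 3.72) and 2.89 at starts (2.54 to 3.28), and these intervals overlap. Whether ends and starts differ by another amount at these genes was not tested.

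**Figure D2:**
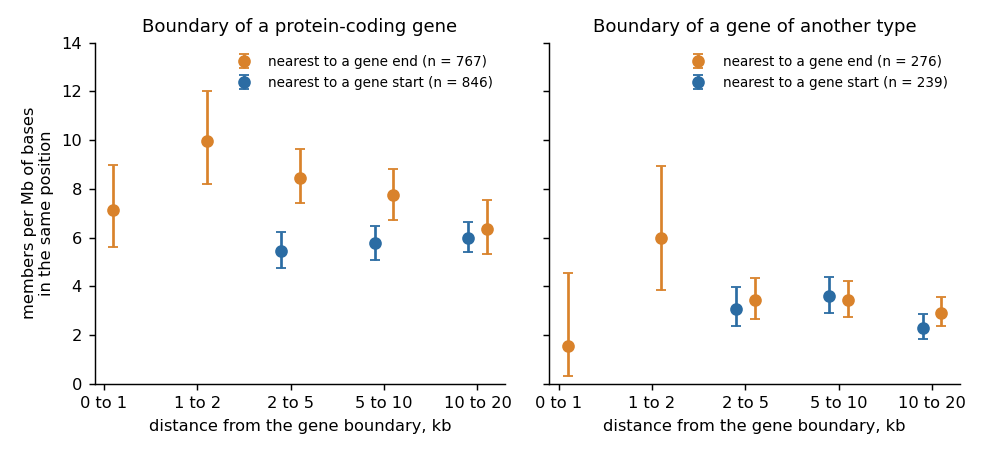
Points give near-gene extragenic sites per Mb (y axis) by distance in kb past the nearest gene end (orange) or before the nearest gene start (blue), with 95% counting intervals. At protein-coding genes (left) the ends rise to 9.96 per Mb at 1 to 2 kb and stay above the starts up to 10 kb, and at genes of other types (right) the intervals of ends and starts overlap from 2 to 20 kb.

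The 5 sites closest past the end of a protein-coding gene are described by the distance of their centres. All 5 regions were wide enough to reach back over the gene end. The centre of a site with a score of 66.2 lay 39 bp past the end of Iqcj, and that of a site of score 59.3 lay 83 bp past the end of Tmem100, which encodes a transmembrane protein. Sites at Arntl2, a clock gene (score 95.3), and Dusp26, a phosphatase gene (score 77.6), lay 116 and 133 bp past the gene end, and a site of score 54.7 lay 141 bp past Nacc2. All 5 scores were under 100. The 78 sites within 1 kb of a gene end had a median score of 75.0 (64.9 to 85.2), which is below the 84.6 (82.1 to 86.8) of all near-gene extragenic sites with overlapping intervals.

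The gaps between genes were sorted by the direction of the genes on both sides. Tandem gaps, with both genes transcribed the same way, held 1123 sites, divergent gaps, between 2 gene starts, held 556, and convergent gaps, between 2 gene ends, held 448. Per Mb this was 4.99 sites in tandem gaps (4.71 to 5.30), 5.23 in divergent gaps (4.80 to 5.68) and 5.70 in convergent gaps (5.18 to 6.25), with overlapping intervals. Within tandem gaps, where each gap has 1 gene end and 1 gene start, bases nearer the end held 5.80 sites per Mb (594 sites, 5.34 to 6.28) and bases nearer the start 4.32 (529 sites, 3.96 to 4.71), without overlap of the intervals. The rule leaves out the 2 kb before a start but keeps the first 2 kb past an end, so these values cover unlike distances. The median length of the gaps around a site was 35.3 kb, from 28.1 kb for convergent to 42.5 kb for divergent gaps.

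The nearest TSS belonged to a protein-coding gene at 1536 sites (72.2%, 70.2 to 74.0), against 57.8% of the bases. The density was 6.48 sites per Mb near protein-coding TSSs (6.16 to 6.81) and 2.60 per Mb near pseudogenes (190 sites, 2.25 to 3.0). Between these lay miRNA genes at 5.40 per Mb (80 sites) and lincRNA genes at 6.41 (48 sites), both with intervals that include the density of all near-gene extragenic sites, and the small nuclear and small nucleolar RNA genes at 3.6 and 3.16 per Mb. Of the 592 sites whose nearest TSS was not protein-coding, 198 also lay within 20 kb of a protein-coding TSS, and the median distance to one was 28.5 kb.

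The score of a region is the authors' MACS score, minus 10 times the log10 of the p-value of the region against input. Near-gene extragenic sites had scores from 50.0 to 538 with a median of 84.6 (82.1 to 86.8). The median was 84.1 at extragenic sites 20 to 100 kb from a TSS (82.3 to 86.6), 79.3 in introns (77.6 to 81.1), 76.6 in promoters (73.4 to 79.7) and 81.4 over all sites (80.6 to 82.3). A score of at least 100 was reached by 805 near-gene extragenic sites (37.8%, 35.8 to 39.9), beside 34.6% of all sites, 36.7% of the farther extragenic sites, 32.3% of intronic sites and 28.6% of promoter sites. The intervals of promoter sites (25.7 to 31.8) and intronic sites (30.6 to 34.1) lay below that of near-gene extragenic sites, and that of the farther extragenic sites (34.6 to 39.0) overlapped it.

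**Figure D3:**
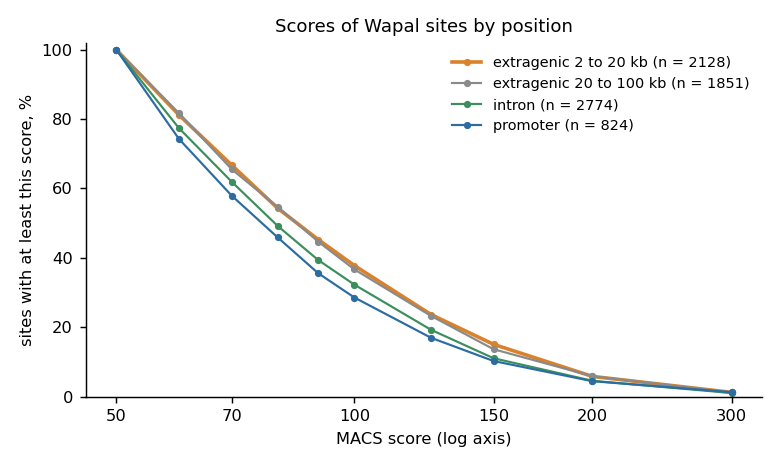
Lines give the percent of sites (y axis) with at least the MACS score on the x axis (log scale) for near-gene extragenic sites and 3 other positions. The near-gene extragenic and the 20 to 100 kb lines run together, at 37.8% and 36.7% for a score of 100, above introns and promoters at 32.3% and 28.6%.

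Scores differed little by position within the near-gene extragenic sites. The median was 84.3 upstream (81.0 to 87.4) and 84.8 downstream (81.4 to 88.4). It was 84.1 beside gene ends and 85.0 beside gene starts, and 84.4, 85.0 and 83.8 in tandem, divergent and convergent gaps. Across the 2128 sites the score had a Spearman correlation of 0.02 with distance to the TSS and of 0.16 with width, as a description of 1 list. The median width was 839 bp (832 to 847), with a range of 303 to 6023 bp, against 794 bp at the farther extragenic sites, 805 bp in introns and 883 bp in promoters. The 5 widest sites were not among the 10 with the highest score. They lay nearest to 4930578M01Rik (6023 bp, score 74.2), Gbx2, Rpl37a, Gm3834 and U7.

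The 10 sites with the highest scores lay on 9 chromosomes and reached from 389 to 538. The highest score of 538 belonged to a site 12.5 kb upstream of mmu-mir-2134-4 on chromosome 13. A site of score 473 lay 13.3 kb upstream of Tfb1m, which encodes a methyltransferase of mitochondrial ribosomal RNA, and one of score 443 lay 8140 bp past the end of 1810063B07Rik. The others were nearest to Gm9799 (442), AC115706.1 (414), Slc10a1 (403), Gm13649 (400), Rpl21-ps14 (398), Psen2 (391) and U3 (389). Slc10a1 encodes a bile acid transporter of liver, and Psen2 a presenilin of the gamma-secretase complex. Of the 10, 4 were upstream and 6 downstream, and all 10 held a match to the CTCF core with no more than 1 mismatch.

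The CTCF core motif was searched on both strands of each site. At most 1 mismatch was found in 1612 of the 2128 sites (75.8%, 73.9 to 77.5), beside 74.5% of all Wapal sites, 75.1% of the farther extragenic sites, 76.2% of intronic sites and 65.2% of promoter sites (61.9 to 68.3). It was found in 12.8% (11.8 to 13.8) of 4256 regions of the same width placed 5 kb to each side of the sites, and in 25.2% of the BirA regions. The BirA regions were narrower, with a median width of 469 bp against 839 bp, so their share is not matched for width. An exact match was found in 634 sites (29.8%, 27.9 to 31.8), beside 28.3% of all sites and 0.893% of the flanking regions. Of the flanking regions, 82 shared a base with a Wapal site. Median GC content was 45.2% in the sites and 45.0% in the flanking regions.

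Sites with a closer match had higher scores. The median score was 93.1 with an exact match (88.1 to 98.0), 84.4 with 1 mismatch (81.4 to 87.0), 77.1 with 2 mismatches (450 sites, 74.2 to 82.7) and 70.4 with more (66 sites, 63.6 to 76.7). Among the 532 sites of the lowest scores, 24.6% (21.2 to 28.5) had an exact match, and among the 532 of the highest, 35.5% (31.6 to 39.7). The share of downstream sites with at most 1 mismatch was 78.2% (75.2 to 80.9) and that of upstream sites 74.3% (71.8 to 76.5), with overlapping intervals. The match lay a median of 44.0 bp from the centre of the site (40.0 to 47.0), and 1224 of 1612 matches (75.9%) lay within 100 bp of it.

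**Figure D4:**
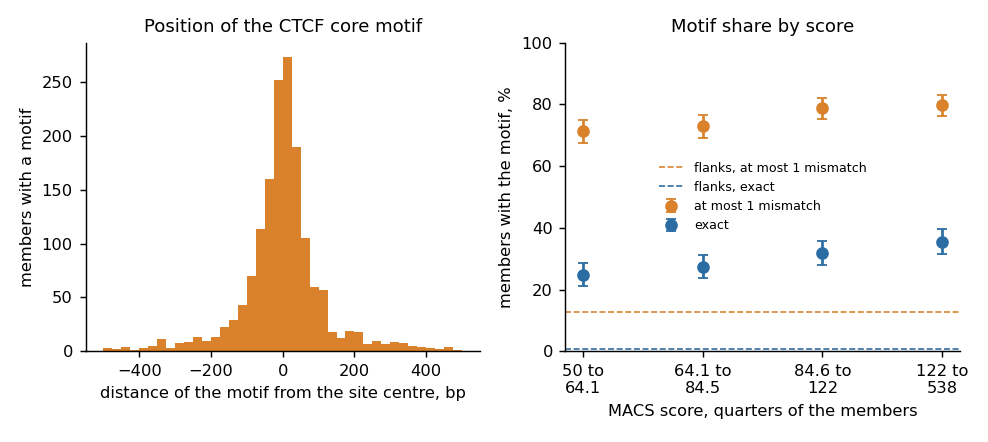
On the left, a histogram of the distance in bp between the CTCF core motif (at most 1 mismatch) and the centre of the site, with distances over 500 bp not drawn, peaks at the centre. On the right, the percent of sites with the motif in 4 groups of 532 sites by MACS score, with 95% Wilson intervals, goes from 71.4% to 79.7% with at most 1 mismatch and from 24.6% to 35.5% for exact matches, above the flanking regions (dashed lines, 12.8% and 0.893%).

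The letters of the matches in sites differed from those of matches in the flanking regions. Counted from the first base of the core, position 4 was C in 62.6% of the 1612 matches in sites and in 30.1% of the 545 in flanking regions, and the base 3 before the core was T in 46.6% against 18.5%. Of the 978 matches with 1 mismatch, 341 had it at position 5, and 165 and 164 had it at the first and the last base. Positions 2, 7 and 10 were the same base in 99.8%, 99.5% and 99.2% of matches in sites. In flanking regions this was 97.4%, 94.1% and 97.1%. The core allows only 1 base at these positions, so the search itself largely sets these shares.

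Some matches were followed by the same letters. The 2 sites printed here, nearest to U7 (score 178) and Mycl1 (score 89.6), share a core with 1 mismatch followed by GATC. Such letters are also found in the B2 short interspersed elements of the mouse, which carry a sequence like the CTCF motif. Whether these sites lie in B2 elements was not tested.
U7 (chr15:55098834-55098893, - strand): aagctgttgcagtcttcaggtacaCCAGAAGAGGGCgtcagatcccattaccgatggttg
Mycl1 (chr4:122665436-122665495, - strand): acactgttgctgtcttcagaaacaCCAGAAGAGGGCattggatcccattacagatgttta

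GATC at positions 17 to 20 after the start of the core was found at 83 of the 1612 matches in near-gene extragenic sites (5.15%, 4.17 to 6.34) and at 134 of the 545 matches in flanking regions (24.6%, 21.2 to 28.4). These are shares of matches, and a match was far less frequent in flanking regions. Over all regions, with or without a match, the counts were 83 of 2128 sites and 134 of 4256 flanking regions. So the shares of matches do not show that the context was rarer in sites. GATC was chosen after these letters had been seen, and the genome used here does not mark repeats. It followed 8 of 634 exact matches and 75 of 978 matches with 1 mismatch. Sites with it had a median score of 69.0, and sites with the motif but without it 87.8. Among matches with 1 mismatch alone, the medians were 69.5 with it and 84.8 without it. Over all Wapal sites with the motif the share was 5.26%.

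The motif pointed to the nearest TSS at 754 of 1612 sites (46.8%, 44.3 to 49.2), when read 5′ to 3′ as in the printed lines. Upstream sites pointed to it in 49.6% (46.5 to 52.8) and downstream sites in 42.3% (38.5 to 46.2). The intervals are next to each other without overlap, and the difference was not tested further.

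Other short motifs, searched exactly on both strands, were about as frequent as in the flanking regions. The octamer ATTTGCAT of Oct4 was found in 5.31% of near-gene extragenic sites (4.44 to 6.35), in 5.52% of flanking regions and in 5.14% of all sites. TCAAGGTCA, bound by Esrrb, was found in 3.57% (2.86 to 4.45), 2.91% and 2.67%. AAGATGGC, bound by Yy1, was found in 7.10% (6.08 to 8.27), 8.08% and 7.27%, the AP-1 motif TGANTCA in 25.3% (23.5 to 27.2), 23.7% and 23.6%, and the Sp1 motif GGGCGGG in 8.65% (7.53 to 9.92), 7.66% and 7.73%. In each case the interval of the near-gene extragenic sites included the share of the flanking regions.

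Of 10 genes the study names, 4 were nearest to a near-gene extragenic site. Adm, which encodes the vasodilator peptide adrenomedullin, had a site at chromosome 7, 117773419 to 117775012 (score 78.1), 3.04 kb downstream of its TSS and 884 bp past its end. Fos, the immediate early gene of an AP-1 subunit, had a site (score 109) 10.6 kb past its end, 14 kb from the 5′ end of the gene and 12.9 kb from its nearest annotated TSS. The ChIP-qPCR amplicons for Adm and c-Fos lay inside these 2 sites. Snai2, a transcriptional repressor that promotes epithelial to mesenchymal transition, had a site of score 194 at 4.33 kb upstream. Nanog, the homeodomain factor of pluripotency, had a site of score 126 at 5.54 kb past its end. The Nanog site differed from the CTCF core at 2 bases, and the sites at Adm and Snai2 held exact matches, against the direction of transcription at Adm and with it at Snai2. Myc, Ppp1r3c, Lefty1, Hoxd1, Sox11 and Twist1 were not the nearest gene of such a site.

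**Figure D5:**
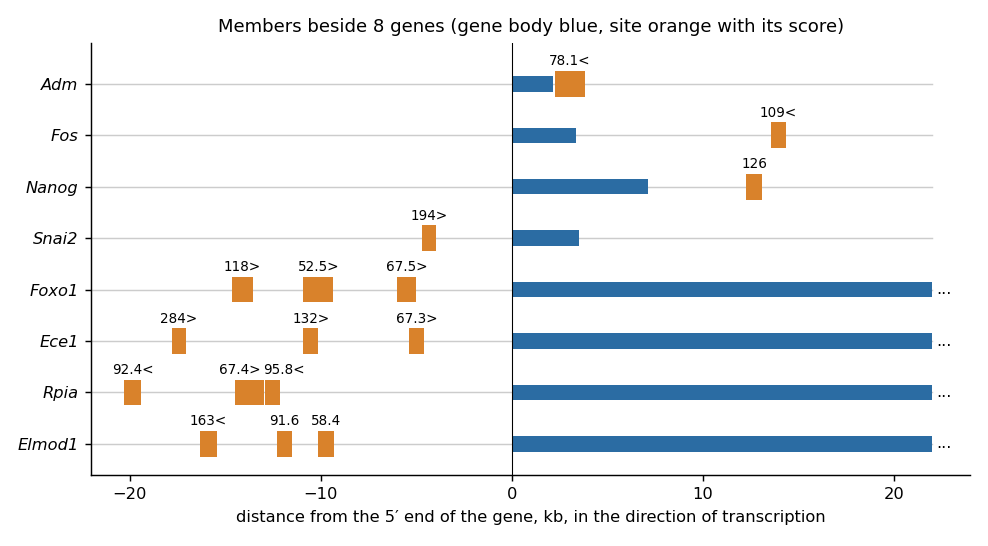
The map shows the sites (orange, with their MACS score) beside 8 genes (blue) in kb from the 5′ end of each gene in the direction of transcription, where > and < give the direction of a CTCF core motif with at most 1 mismatch and dots mark genes that run on. The sites at Adm, Fos and Nanog lie past the gene end and those at the other 5 genes lie upstream.

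Few genes had more than 1 near-gene extragenic site. Of the 1992 nearest genes, 1862 had 1 site, 124 had 2 and 6 had 3, among them the protein-coding genes Foxo1, Ece1, Rpia and Elmod1. All 12 sites of these 4 genes lay upstream. At Foxo1, a forkhead transcription factor of insulin signaling, the scores were 118, 52.5 and 67.5 at 14.1, 10.1 and 5.49 kb, and all 3 motifs pointed to the gene. At Ece1, which encodes an enzyme that activates endothelin, the scores were 284, 132 and 67.3 at 17.4, 10.5 and 4.98 kb, and all 3 sites held an exact motif that pointed to the gene.
Ece1 (chr4:137400757-137400816, + strand): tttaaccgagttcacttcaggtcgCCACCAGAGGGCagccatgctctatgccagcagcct
Ece1 (chr4:137407545-137407604, + strand): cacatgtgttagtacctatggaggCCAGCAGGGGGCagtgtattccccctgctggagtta
Ece1 (chr4:137413202-137413261, + strand): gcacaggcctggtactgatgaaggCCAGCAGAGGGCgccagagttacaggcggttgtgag

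At Rpia, an enzyme gene of the pentose phosphate pathway, 3 exact motifs stood at scores of 95.8, 67.4 and 92.4, and only the middle one pointed to the gene. At Elmod1 the scores were 58.4, 91.6 and 163, and only the site of score 163 held the motif with at most 1 mismatch. Rpl37a, the first by position of the genes with 2 sites, had sites of scores 77.1 and 140 past its end.

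Sites that shared a gap between genes were compared by motif direction. Of 1959 gaps with a near-gene extragenic site, 143 held 2 and 13 held 3. In 103 pairs of neighbouring sites in a gap both sites had the motif, and it ran in the same direction in 60 (58.3%, 48.6 to 67.3), apart in 36 (35.0%, 26.4 to 44.5) and towards each other in 7 (6.80%, 3.33 to 13.4). Among 408 other pairs of neighbouring Wapal sites up to 20 kb apart with the motif, the shares were 47.8%, 45.8% and 6.37%. The nearest other Wapal site lay a median of 65.9 kb from a near-gene extragenic site (60.9 to 70.9), against 74.1 kb over all sites (71.2 to 77.1), and within 5 kb for 158 of them (7.42%, against 6.26% of all sites).

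A near-gene extragenic site lay on both sides of 20 protein-coding genes. Singled out after their values were seen, Psen2 had a site of score 391 at 5.46 kb upstream and a site of 97.5 at 15.1 kb downstream, and Cebpe, a transcription factor gene of granulocytes, had sites of 131 and 161 at 2.38 and 10.6 kb. In 12 of the 20 both sites held the motif, which pointed at the gene from both sides in 2, away from it in 5 and in the same direction in 5. Among the 1435 protein-coding genes nearest to such a site, 43 (3.0%) also had a site in a promoter, beside 2.66% of all protein-coding genes. A site in the gene body was found for 9.34% of them, beside 11.5% of all.

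Gene lists were compared by the share of their genes that were the nearest gene of a near-gene extragenic site, beside 6.42% (6.10 to 6.74) of all 22367 protein-coding genes. No test was made, since neighbours in a list can share sites and gaps, and the lists were chosen with earlier results of these data known. The highest share was that of pluripotency genes, 7 of 29 (24.1%, 12.2 to 42.1). These were Prdm14, a regulator of naive pluripotency and germ cells (score 158, 7.36 kb upstream), Gbx2, a homeobox gene (144, 8.02 kb upstream), Fbxo15, an F-box gene expressed in ESCs (137, 12 kb upstream), Nanog, and, outside the rule for naming, Stat3, which transduces LIF signals (104, 8.15 kb upstream), Dppa2 (82.1, 18.1 kb downstream) and Dppa3 (62.9, 6.90 kb downstream). For Prdm14 the nearest gene boundary was the end of Ncoa2. Exact or 1-mismatch motifs stood in the sites at Prdm14, Gbx2, Fbxo15 and Dppa2. The Gbx2 region was 5188 bp wide, and its match lay 2119 bp from the centre. Regions at 2 further genes of ESCs, Zfp42 (score 156, 14.7 kb from a TSS) and Dppa5a (score 53.9), met the position rule but shared a base with a BirA region and are not counted.

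Developmental transcription factors and secreted signals are described with the side of their sites, beside 1028 upstream and 508 downstream of all 1536 sites nearest to a protein-coding TSS. Of 239 developmental factor genes, 23 (9.62%, 6.50 to 14) were nearest to 25 sites, 19 of them upstream, with the highest scores at En1, a homeobox gene of midbrain and hindbrain (279, 15.7 kb upstream), Dlx5, a homeobox gene of face and limb (200, 3.04 kb upstream), and Snai2. The factor list took in forkhead genes, and Foxo1 alone had 3 of its upstream sites. Of 99 secreted signal genes, 10 (10.1%, 5.58 to 17.6) were nearest to a site, 9 of them upstream. The highest were the Wnt ligands Wnt8b (135), Wnt6 (126) and Wnt3 (96.0).

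Small lists had shares with wide intervals that include 6.42%. Of 23 cohesin and CTCF genes, 2 (8.70%, 2.42 to 26.8) were nearest to a site, Nipbl, the cohesin loader (63.9, 6.75 kb upstream), and Smc3, a core subunit (56.0, 6.06 kb downstream). Of 31 Polycomb genes, 2 (6.45%, 1.79 to 20.7) were nearest to a site, Phc1 (79.8, 2.12 kb upstream) and Eed (57.7, 17.3 kb upstream). Among 36 genes listed as immediate early, 2 (5.56%, 1.54 to 18.1) were nearest to a site, Fos and Mycl1. Mycl1, a Myc family gene, had 2 upstream sites (55.0 and 89.6). Of 25 glycolysis genes, 2 (8.0%, 2.22 to 25) were nearest to a site, Ldhb (144 and 72.8, both upstream) and Pgk1 (66.0, 148 bp past its end).

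Of 83 ribosomal protein genes, 7 (8.43%, 4.15 to 16.4) were nearest to 9 sites, 7 of these downstream, beside 508 of the 1536 sites at all protein-coding genes. The length of the genes in each list, which goes with the side of a site, was not taken into account. The ribosomal protein genes were led by Rpl37a (140), Rps9 (104, 884 bp past its end) and Rpl24 (76.8, 15.1 kb upstream). Of 110 cytokine and chemokine genes, 8 (7.27%) were nearest to a site, 6 of these downstream, with Csf2 (139, upstream), Ccl1 (105) and Cxcl17 (103) highest. The share was 5.98% of 368 zinc finger genes (22 genes, led by Zfp637 at 179, Zfp715 at 144 and Zfp703 at 122) and 6.59% of 349 solute carrier genes (23 genes, led by Slc10a1 at 403, Slc46a2 at 231 and Slc6a19 at 194). It was 6.38% of 94 keratin genes (6 genes, led by Krt28 at 167, Krt33a at 104 and Krt78 at 76.2) and 7.45% of 94 cytochrome P450 genes (7 genes, led by Cyp2d26 at 160, Cyp2b19 at 128 and Cyp1b1 at 127). These 4 shares had intervals that include the 6.42% of all protein-coding genes.

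Olfactory and vomeronasal receptor genes had the lowest share. Of 1407 such genes, 35 (2.49%, 1.79 to 3.44) were nearest to a site, 17 of 36 sites upstream. The highest scores were at Olfr94 (322), Olfr878 (239) and Olfr1393 (222). Of 1577 miRNA genes, 74 (4.69%, 3.75 to 5.85) were nearest to 80 sites, led by mmu-mir-2134-4, AC115706.1 and AC158132.1 (273). The share of protein-coding genes is no yardstick for this list. Of all 37273 annotated genes of any type, 1992 were nearest to a site.

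Near-gene extragenic sites were found on all autosomes and on the X chromosome. The density ranged from 4.23 sites per Mb on chromosome 2 to 7.71 on chromosome 19 among the autosomes. On the X chromosome it was 1.19 per Mb (48 sites, 0.880 to 1.58), against 5.63 on the autosomes together (5.39 to 5.87). All Wapal sites showed the same order, at 0.981 per Mb of sequence on X and 3.41 on the autosomes. The median score was 74.0 on X and 84.7 on the autosomes.

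Sites just inside and just outside the limits of the rule are given for reference. Just inside the lower limit lay sites nearest to Cox6a2 (2003 bp, score 175), Gm9790 (2004 bp, score 107) and Trbv14 (2010 bp, score 68.3), and just outside lay sites nearest to Mir760 (1997 bp, score 87.4), Nfil3 (1993 bp, score 204) and 4933414I15Rik (1981 bp, score 66.5). Just inside the upper limit lay sites nearest to 5S_rRNA (19979 bp, score 76.9), Hif1an (19974 bp, score 277) and A930038C07Rik (19967 bp, score 75.9), and just outside lay sites nearest to Pex5 (20016 bp, score 99.9), Kcnk18 (20017 bp, score 187) and Mogat1 (20025 bp, score 66.6). The removal of BirA regions took 36 regions that met the position rule, with scores from 53.9 to 363.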

How the data were processed

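Regions came from bioChIP-seq of 2 FB Wapal clones, BirA-only cells and input. Per the study's methods and processing notes, Bowtie placed the reads on mm9 and those with a unique position were kept, and the authors then ran MACS 1.4.2 against input (default p, 1e-05) and CisGenome for annotation. The deposited value of each region is the authors' MACS score (minus 10 times log10 of p), which is not normalized between lists and has no read count. Genome and genes were NCBIM37 (mm9) and GENCODE M1. Both primers of 15 of 15 published amplicons were found at their mm9 positions. Python 3.11.15, numpy 2.4.6, pandas 2.3.3 and scipy 1.17.1 were used.

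Positions were taken at region centres, with ties to the lower coordinate. Available bases are all sequenced bases meeting the same rule, and density intervals are exact Poisson, shares Wilson, medians order statistic intervals. Functions were tested on simulated data. The sequence of 1 named site is not reported here. Since the clones share 1 list, no test between samples was possible and none was made across regions. Members and gene lists were chosen with earlier results of these data known. Tfcp2l1 and Pkm are not symbols in this annotation and were not counted. Named were the 10 highest scores, the 5 widest, the 5 closest past a protein-coding gene end, 3 on each side of each limit, genes the study names, the 5 protein-coding genes with most sites and the top 3 of each list.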

Additional observations from a re-analysis of the deposited data

How the results depend on the processing

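Of 42 alternative values, 30 stayed within the interval of the value reported or, for the number of sites, within 1.5 times of it. Leaving out regions within 1000 bp of a BirA region removed none of the 2128 sites. The values of that setting repeat the main ones, so they count among the 30 without testing anything. With a score of at least 100, the number of sites was 805, their median score 137 and the share with the CTCF core motif 79.5%. The score limit itself raises this median. An upper limit of 10000 bp left 1158 sites, of which 65.4% were upstream (65.5% of the bases) and 45.0% nearest to a gene end (40.9% of the bases). With protein-coding genes alone 66.8% were upstream (70.3% of the bases) and 44.2% nearest to a gene end (37.1% of the bases). With the 5′ end of each gene as its TSS these shares were 67.5% (65.9% of the bases) and 46.7% (42.7% of the bases). The share nearest to a gene end stood above that of the bases in the main setting and in all 8 alternatives, and the upstream share stood below it in all but the 5′ end setting. The motif share was 29.8% for exact matches and 96.9% with at most 2 mismatches. No paired analysis was possible because both clones share 1 list, and no replicate could be left out. Read depth, mappability and repeats of single regions were not measured here.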
